A study of Mus musculus with 6 samples.

Results

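Purinergic receptors and ectonucleotidases are the cell-surface proteins that sense extracellular nucleotides and adenosine or convert one into the other, and 10 of their genes were followed here by symbol among the 24786 gene symbols of the expression table. They are the ATP-gated channels *P2rx4* and *P2rx7*, the G protein-coupled nucleotide receptors *P2ry2*, *P2ry6*, *P2ry13* and *P2ry14*, the adenosine receptors *Adora2a* and *Adora2b*, and the ectonucleotidases *Entpd1* (CD39) and *Nt5e* (CD73). Polyadenylated RNA was sequenced from Raw264.7 cells, a mouse macrophage line from a tumor induced by Abelson murine leukemia virus, for which the labels give the strain C57BL/6 and a postnatal age, although the line is usually described as derived from BALB/c mice. Cells carried a lentiviral control shRNA (sh-NC, n = 3 libraries, labelled control) or a lentiviral shRNA against the transcription factor gene *Etv5* (sh-*Etv5*, n = 3 libraries, labelled *Etv5* knockdown). Both groups were infected and, per the methods of the study, selected with puromycin, and no uninfected cells were among the libraries. The labels place measurements 24 or 48 hours after infection without saying which applies to a library, whereas the study describes the sequenced cells as stably transfected and passaged under puromycin, so that the time of harvest is uncertain. The shRNA used for sequencing is not named, and nothing states that libraries of a group came from separate cultures, so that p-values measure the spread between these libraries.

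ATP leaves stressed or activated cells and acts as a danger signal on macrophages. P2X receptors are ATP-gated cation channels, and the receptor encoded by *P2rx7* is best known for driving potassium efflux, inflammasome activation and release of IL-1β. P2Y receptors couple to G proteins, and their ligands differ: ATP and UTP for the product of *P2ry2*, UDP for that of *P2ry6*, ADP for that of *P2ry13* and UDP-glucose for that of *P2ry14*. CD39 removes phosphates from ATP and ADP, CD73 turns the resulting AMP into adenosine, and adenosine then raises cAMP through the receptors encoded by *Adora2a* and *Adora2b*, which restrains inflammatory macrophages.

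Values are RPKM, read coverage scaled by gene length and library size, as the authors deposited them. Fold changes are given as the difference of log2(RPKM + 1) with its standard error (SE), sh-*Etv5* minus sh-NC, which understates the change of low genes. The groups were compared with limma on log2(RPKM + 1) over the 10738 genes with at least 1 RPKM in at least 3 libraries, and a Benjamini-Hochberg adjusted p-value under 0.05 was called. The RPKM values of a library summed to 320462 to 322949 in sh-NC and 330454 to 340257 in sh-*Etv5*. The commonest step among low values placed the depth of the libraries at roughly 18600000 to 22000000 reads, without a gap between the groups. Only 20.2% to 21.9% of low genes lay within 0.05 reads of a whole number at this step, so the depth and all read numbers are rough. *Etv5* was at 9.18, 9.89 and 9.39 RPKM in sh-NC, against 5.19, 4.91 and 5.28 RPKM in sh-*Etv5* (log2 difference -0.78, SE 0.0565; limma adjusted p = 2.74e-07). Of its 50-base sequences, 24.5% also occur in the pseudogene *Gm4798*. The macrophage markers *Csf1r*, *Cd68*, *Lyz2*, *Fcgr1*, *Itgam* and *Adgre1* were present in all libraries, and *Mertk* stayed at or below 0.0653 RPKM. Of these markers *Itgam* (33.8 ± 0.746 to 127 ± 7.21 RPKM; SD, n = 3) and *Adgre1* (2.60 ± 0.119 to 11.3 ± 0.757 RPKM; SD, n = 3) rose and the other 4 fell. The summed level of the list, mostly *Lyz2* (2834 against 2041 RPKM), was 3680 to 3769 RPKM in sh-NC and 2648 to 2731 RPKM in sh-*Etv5* libraries. Of the 23 markers of T cells, B cells, neutrophils, mast cells, fibroblasts and epithelium in the table, 1 reached 1 RPKM. This was *S100a8*, which neutrophils and activated macrophages make, at 0.123 to 0.491 RPKM in sh-NC and 15.5 to 19.7 RPKM in sh-*Etv5* libraries, while *S100a9*, *Ly6g* and *Elane* were listed at 0 in all 6. The part of the shift in macrophage markers and *S100a8* in the results was not tested. In bulk RNA of this kind, fewer cells with a transcript and less transcript per cell cannot be told apart.

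Pairs of the 10 genes lie side by side in the mouse genome (GRCm38, GENCODE release M21). *P2rx7* (ENSMUSG00000029468.17, chr5:122643911-122691432, plus strand) ends 16.1 kb before *P2rx4* (ENSMUSG00000029470.15, chr5:122707544-122729738, plus strand). *P2ry6* (ENSMUSG00000048779.5, chr7:100937630-100974649, minus strand) and *P2ry2* (ENSMUSG00000032860.5, chr7:100996568-101012866, minus strand) are 21.9 kb apart with no annotated gene between them. *P2ry14* (chr3:59113855-59153618) and *P2ry13* (chr3:59207892-59210882) lie 54.3 kb apart on the minus strand, both inside *Med12l*, which runs on the plus strand. The other members are single: *Adora2a* (chr10:75316877-75334784, plus strand), *Adora2b* (ENSMUSG00000018500.2, chr11:62248984-62266453, plus strand), *Nt5e* (chr9:88327197-88372092, plus strand) and *Entpd1* (chr19:40612366-40741602, plus strand). No exon of a member overlapped an exon of another gene, apart from *Mir8115* within 1.99% of the exonic bases of *P2rx7*. At most 1.36% of the 50-base sequences of a member, in *P2rx4*, also occurred in transcripts of other genes.

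The RefSeq promoter table (GRCm38.p6) held 8 of the 10 members, not *P2ry6* and *Adora2a*. The 250 bases before the RefSeq start are shown for the 4 members that were both tested and in the table, since these are the genes whose levels differed between the groups, and each is read 5′ to 3′ on its own strand. The windows are chr5:122707294-122707543 for *P2rx4*, chr5:122643677-122643926 for *P2rx7*, chr7:101012054-101012303 for *P2ry2* and chr11:62248734-62248983 for *Adora2b*. Where a member had more than 1 start in the table, the farthest upstream was taken. The *P2ry2* window lies inside the GENCODE gene given above, and the *P2rx7* window overlaps the first bases of its gene. Capitals mark GGAA or its reverse complement TTCC, the core that ETS factors such as ETV5 recognise, and in *P2rx7* also the AP-1 motif TGANTCA near the first base.
P2rx4: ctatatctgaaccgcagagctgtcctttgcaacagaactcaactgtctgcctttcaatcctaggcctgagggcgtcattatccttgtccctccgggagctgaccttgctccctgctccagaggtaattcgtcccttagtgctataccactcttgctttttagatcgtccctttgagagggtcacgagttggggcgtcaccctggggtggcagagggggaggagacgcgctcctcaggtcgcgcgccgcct
P2rx7: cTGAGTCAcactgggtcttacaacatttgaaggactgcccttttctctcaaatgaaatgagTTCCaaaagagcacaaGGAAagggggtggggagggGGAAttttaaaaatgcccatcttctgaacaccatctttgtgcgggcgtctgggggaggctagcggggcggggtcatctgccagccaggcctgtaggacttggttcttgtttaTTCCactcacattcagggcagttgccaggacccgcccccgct
P2ry2: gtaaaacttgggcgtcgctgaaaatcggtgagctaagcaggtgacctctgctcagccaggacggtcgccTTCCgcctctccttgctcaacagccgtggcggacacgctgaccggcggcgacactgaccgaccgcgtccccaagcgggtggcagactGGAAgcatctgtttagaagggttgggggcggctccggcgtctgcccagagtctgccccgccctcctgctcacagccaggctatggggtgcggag
Adora2b: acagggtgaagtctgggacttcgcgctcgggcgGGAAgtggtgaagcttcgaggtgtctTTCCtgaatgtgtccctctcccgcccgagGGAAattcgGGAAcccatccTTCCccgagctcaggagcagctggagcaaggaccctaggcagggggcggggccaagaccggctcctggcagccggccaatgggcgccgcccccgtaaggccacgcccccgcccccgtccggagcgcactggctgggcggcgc
GGAA on either strand occurred 0 times in the *P2rx4* window, 4 times in *P2rx7*, 2 times in *P2ry2* and 5 times in *Adora2b*. It is a common word, present in 93.4% of all 32851 promoters of this length with a median of 3 matches, and as many as 5 matches were found in 18.0% of them. The longer ETS motif CCGGAAGT was in none of the 14 windows of the members and in 2.88% of all promoters. An NF-κB motif (1.41% of all promoters) and the cAMP response element TGACGTCA (1.55%) were in none of these windows either. TGANTCA, found in 6.75% of all promoters, was in windows of *P2rx7* and *P2ry14*. Both strands were searched, none of these motifs was required to be apart from another, and CCGGAAGT contains the core. These are matches of letters and not measured binding sites.

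Of the 10 members, 5 reached the filter, and each of these had at least 1 RPKM in all 6 libraries, so that none passed through one group alone. *P2rx4*, *P2ry2* and *Adora2b* rose in sh-*Etv5* cells and *P2rx7* and *P2ry6* fell. All 5 tested members were called, against 74.3% of all tested genes, of which 33.3% were higher and 41.0% lower, so the count by itself does not set them apart. Their groups did not overlap, as was the case for 76.4% of tested genes. The sizes ranged from a log2 difference of -0.90 to 1.30, with a median absolute value of 0.90. Over all tested genes the median absolute value was 0.31 and the median -0.05. *P2ry6* and *Adora2b* were near the middle, with 50.3% and 49.8% of tested genes showing a smaller absolute log2 difference. The members were chosen with earlier results of these data known, so their sizes are no independent result about the group. *P2rx4* and *P2ry2* also lay above an absolute log2 difference of 1, as did 9.23% of tested genes.

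**Figure D1:**
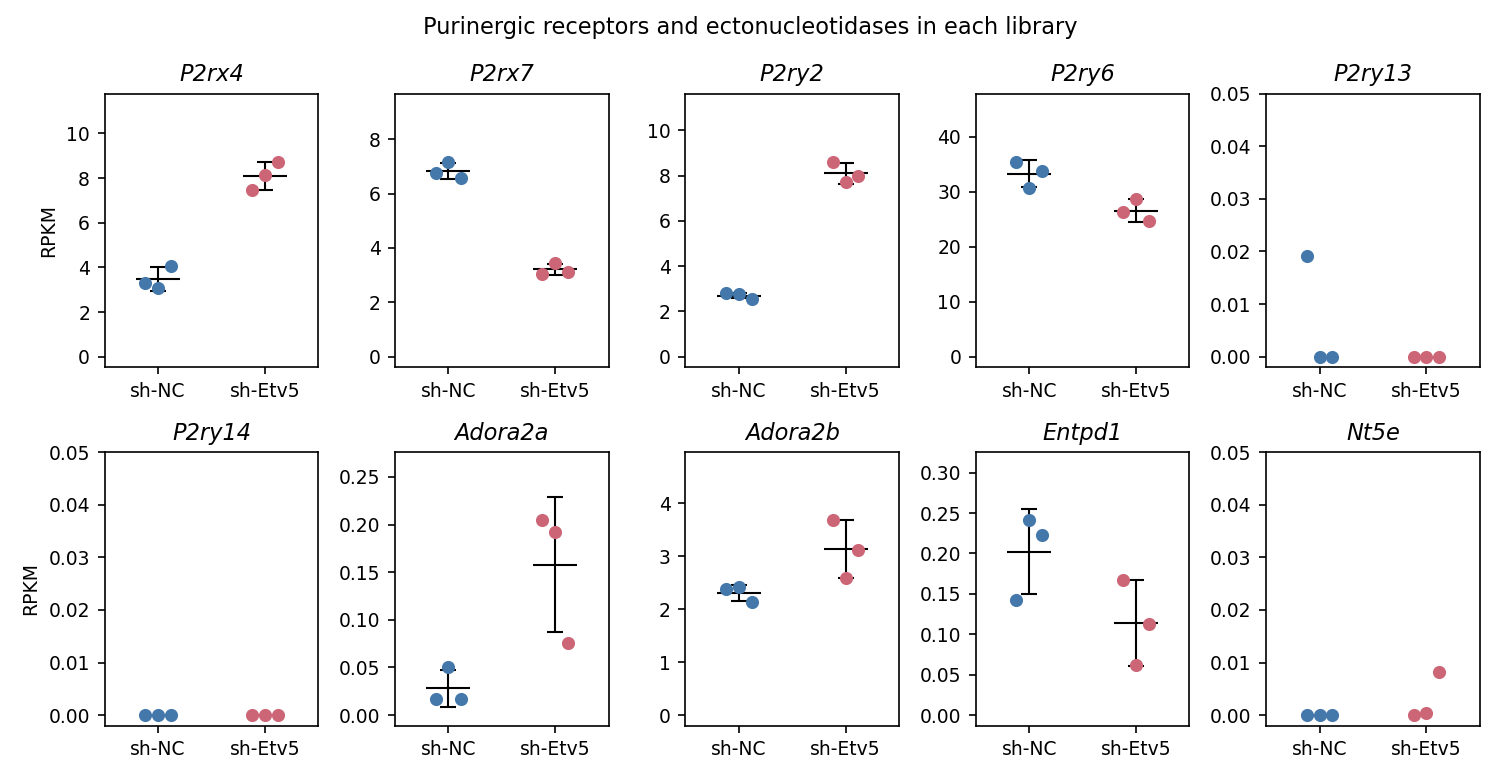
RPKM of each of the 10 genes (vertical axes, linear, each with its own scale) in the 3 sh-NC and 3 sh-Etv5 libraries; points are libraries, and bars give the mean and SD where no library is listed at 0. The points of the groups are apart for P2rx4, P2rx7, P2ry2, P2ry6, Adora2b and, at far lower values, Adora2a.

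The ATP-gated channels moved in opposite directions. *P2rx4*, whose channel sits largely on lysosomes and the cell surface of macrophages, was at 3.30, 3.06 and 4.08 RPKM in sh-NC, against 7.48, 8.13 and 8.73 RPKM in sh-*Etv5*. Each sh-*Etv5* library was above each sh-NC library, and sh-NC replicate 3 was the highest of its group. Group means were 3.48 ± 0.537 and 8.12 ± 0.628 RPKM (SD, n = 3), 2.33-fold higher in sh-*Etv5* (log2 difference 1.03, SE 0.0885; limma adjusted p = 1.09e-06).

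*P2rx7* was at 6.75, 7.17 and 6.58 RPKM in sh-NC, against 3.06, 3.46 and 3.12 RPKM in sh-*Etv5*. The groups were far apart, and neither held a library that stood off. Group means were 6.83 ± 0.307 and 3.21 ± 0.216 RPKM (SD, n = 3), so that *P2rx7* fell by 53.0% (log2 difference -0.90, SE 0.0653; limma adjusted p = 2.72e-07). Within a library, the level of *P2rx4* relative to *P2rx7* was 0.489, 0.426 and 0.621 in sh-NC and 2.45, 2.35 and 2.80 in sh-*Etv5* libraries. *P2rx7* was thus the more abundant of the channels by RPKM in each sh-NC library and *P2rx4* in each sh-*Etv5* library. Which channel is ahead within a group rests on the gene lengths behind the RPKM values, which are not given in the sources used here. The change of the ratio between the groups does not rest on them. The mean ratio was 0.512 ± 0.0995 in sh-NC and 2.53 ± 0.234 in sh-*Etv5* (SD, n = 3, two-sided exact permutation p = 0.10, the smallest that 3 against 3 libraries can give). Since the groups of *P2rx4* and *P2rx7* were already apart in opposite directions, this p-value was fixed in advance and adds no support.

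**Figure D2:**
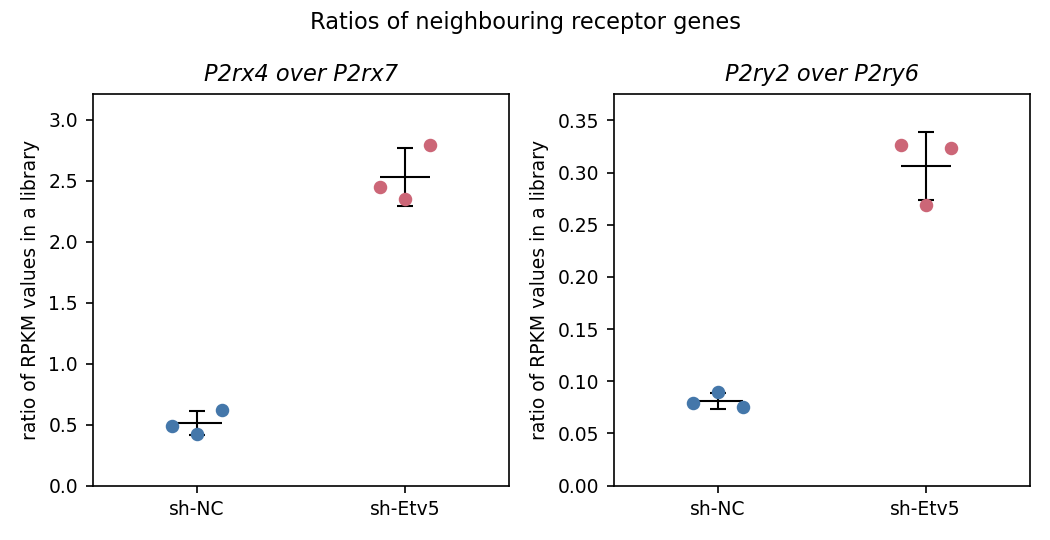
Ratio of RPKM values within each library (vertical axes, from 0) for the receptor genes that lie next to each other on chromosome 5 (P2rx4 over P2rx7) and chromosome 7 (P2ry2 over P2ry6), in 3 sh-NC and 3 sh-Etv5 libraries with mean and SD. P2rx4 over P2rx7 is at most 0.621 in sh-NC and at least 2.35 in sh-Etv5, and P2ry2 over P2ry6 is at most 0.0899 in sh-NC and at least 0.269 in sh-Etv5.

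The neighbouring pair of P2Y receptors on chromosome 7 also moved apart. *P2ry2*, whose product responds to ATP and UTP and guides phagocytes towards dying cells, was at 2.79, 2.75 and 2.55 RPKM in sh-NC, against 8.61, 7.73 and 7.97 RPKM in sh-*Etv5*. The libraries of each group lay close together. With group means of 2.70 ± 0.127 and 8.10 ± 0.456 RPKM (SD, n = 3), *P2ry2* had the largest change of the 5 tested members, 3.001-fold (log2 difference 1.30, SE 0.0643; limma adjusted p = 1.14e-08). Of all tested genes, 94.9% had a smaller absolute log2 difference than *P2ry2*, 91.3% a smaller one than *P2rx4* and 88.3% a smaller one than *P2rx7*.

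*P2ry6*, which encodes the UDP receptor, was the most abundant of the 10 genes in both groups, at 35.5, 30.6 and 33.8 RPKM in sh-NC and 26.4, 28.7 and 24.6 RPKM in sh-*Etv5* libraries. The groups were separate but close, with sh-NC replicate 2 and sh-*Etv5* replicate 2 nearest to each other. Group means were 33.3 ± 2.47 and 26.6 ± 2.05 RPKM (SD, n = 3), so that *P2ry6* fell by 20.2% (log2 difference -0.32, SE 0.0640; limma adjusted p = 0.000975). Of tested genes, 50.3% had a smaller absolute change. *P2ry2* relative to *P2ry6* was 0.0814 ± 0.00754 in sh-NC and 0.306 ± 0.0324 in sh-*Etv5* libraries (SD, n = 3, two-sided exact permutation p = 0.10, the smallest possible). By RPKM, *P2ry6* therefore stayed above *P2ry2* in each library while the ratio between them narrowed. Here too the p-value was fixed in advance, since the groups of both genes were already apart in opposite directions.

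The P2Y receptors for ADP and UDP-glucose were at or near 0. *P2ry13* was listed at 0.0191 RPKM in sh-NC replicate 1, about 1 read at its exonic length of 2528 bases, and at 0 in the other 5 libraries. *P2ry14* was listed at 0 in all 6 libraries. Of their neighbours on chromosome 3, *Gpr171* was listed at 0 in all libraries as well, and *Med12l* did not exceed 0.0353 RPKM. A difference in either receptor was not detectable at this depth.

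Of the adenosine receptors, *Adora2b* was measured at 2.37, 2.43 and 2.14 RPKM in sh-NC, against 3.68, 2.59 and 3.13 RPKM in sh-*Etv5*. The sh-*Etv5* libraries were spread more widely than the sh-NC libraries, and sh-*Etv5* replicate 2 lay just above the highest sh-NC value. Group means were 2.32 ± 0.151 and 3.13 ± 0.545 RPKM (SD, n = 3), 35.3% higher in sh-*Etv5* (log2 difference 0.31, SE 0.0964; limma adjusted p = 0.0129). This call did not hold throughout: the limma adjusted p was 0.0607 without sh-*Etv5* replicate 1, 0.0732 after quantile normalization and 0.0658 when genes below the filter were tested too.

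*Adora2a*, which is known to be induced in macrophages by Toll-like receptor ligands, was far below the filter. It was listed at 0.0170, 0.0505 and 0.0172 RPKM in sh-NC libraries, which is about 1, 3 and 1 reads, and at 0.205, 0.192 and 0.0761 RPKM in sh-*Etv5* libraries, which is about 12, 13 and 4 reads. Each sh-*Etv5* library was above each sh-NC library, with sh-*Etv5* replicate 3 nearest to the controls. In the fit without the filter, where 47.8% of 17831 genes were called, *Adora2a* was called (log2 difference 0.17, limma adjusted p = 0.0311). The size depended on the pseudocount at these values, with a log2 difference of 0.97 at a pseudocount of 0.1 and of 2.13 at 0.01. The limma adjusted p was between 0.0563 and 0.0892 without any one of the sh-NC libraries or without sh-*Etv5* replicate 1 or 2, and 0.0628 after quantile normalization.

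The ectonucleotidases were hardly expressed in either group. *Entpd1* was at 0.142, 0.241 and 0.223 RPKM in sh-NC, against 0.168, 0.0618 and 0.113 RPKM in sh-*Etv5*, about 16 to 28 reads against 8 to 18 reads. The groups overlapped, and without the filter the log2 difference of -0.11 (95% interval -0.23 to 0.01) did not pass the test (limma adjusted p = 0.117). The size again depended on the pseudocount, with a log2 difference of -0.51 at 0.1 and of -0.84 at 0.01, neither of which passed. *Nt5e* was listed at 0 in the sh-NC libraries and in sh-*Etv5* replicate 1. It was at 0.000421 RPKM in sh-*Etv5* replicate 2, about 0.08 reads and so not a whole read number. In sh-*Etv5* replicate 3 it was at 0.00828 RPKM, close to 1 read. The gene for CD73, an enzyme that forms adenosine outside the cell, was thus at the limit of detection in all 6 libraries.

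Ordered by mean RPKM, the sh-NC libraries had *P2ry6* first, followed by *P2rx7*, *P2rx4*, *P2ry2*, *Adora2b*, *Entpd1* and *Adora2a*, and in this order no gene overlapped its neighbour in range over the 3 libraries. In sh-*Etv5* libraries the order was *P2ry6*, *P2rx4*, *P2ry2*, *P2rx7*, *Adora2b*, *Adora2a* and *Entpd1*. Here *P2rx4* (7.48 to 8.73 RPKM) and *P2ry2* (7.73 to 8.61 RPKM) did not differ beyond their spread, nor did *P2rx7* and *Adora2b*, nor *Adora2a* and *Entpd1*. Levels between genes rest on the gene lengths behind the RPKM values, which are not given in the sources used here.

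The genes with the profile most like a member were taken by the distance of centred log2(RPKM + 1) values over the 6 libraries. For *P2ry2* these were *Mfsd7a* (distance 0.0537), *Tmem120a* (0.0845) and *Pld3* (0.0961). For *P2rx7* they were *Cdan1* (0.0337), *Celf2* (0.0366) and *Dock1* (0.0548), which fell with log2 differences of -0.88, -0.89 and -0.91. The likeness is one of differences on the log2(RPKM + 1) scale and not of ratios: *Mfsd7a* went from 0.102 to 1.77 RPKM, a far larger ratio than that of *P2ry2*, and passed the filter through the sh-*Etv5* libraries alone.

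A wider set of 69 genes for nucleotide release, sensing, breakdown and adenosine handling was read from the same libraries. Of these, 37 were tested, and 12 were higher, 15 lower and 10 not called in sh-*Etv5* cells, which is close to the shares of all genes. Their median log2 difference was -0.09, within a range of -0.97 to 4.35. Of the 12 higher genes, *Adora3* and *Slc28a2* met the filter through the sh-*Etv5* libraries alone and so could only be called higher. *Pde4b* was at 0.914, 1.04 and 0.923 RPKM in sh-NC libraries. It too would not have met the filter without the sh-*Etv5* libraries, so its direction was tied to the filter.

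**Figure D3:**
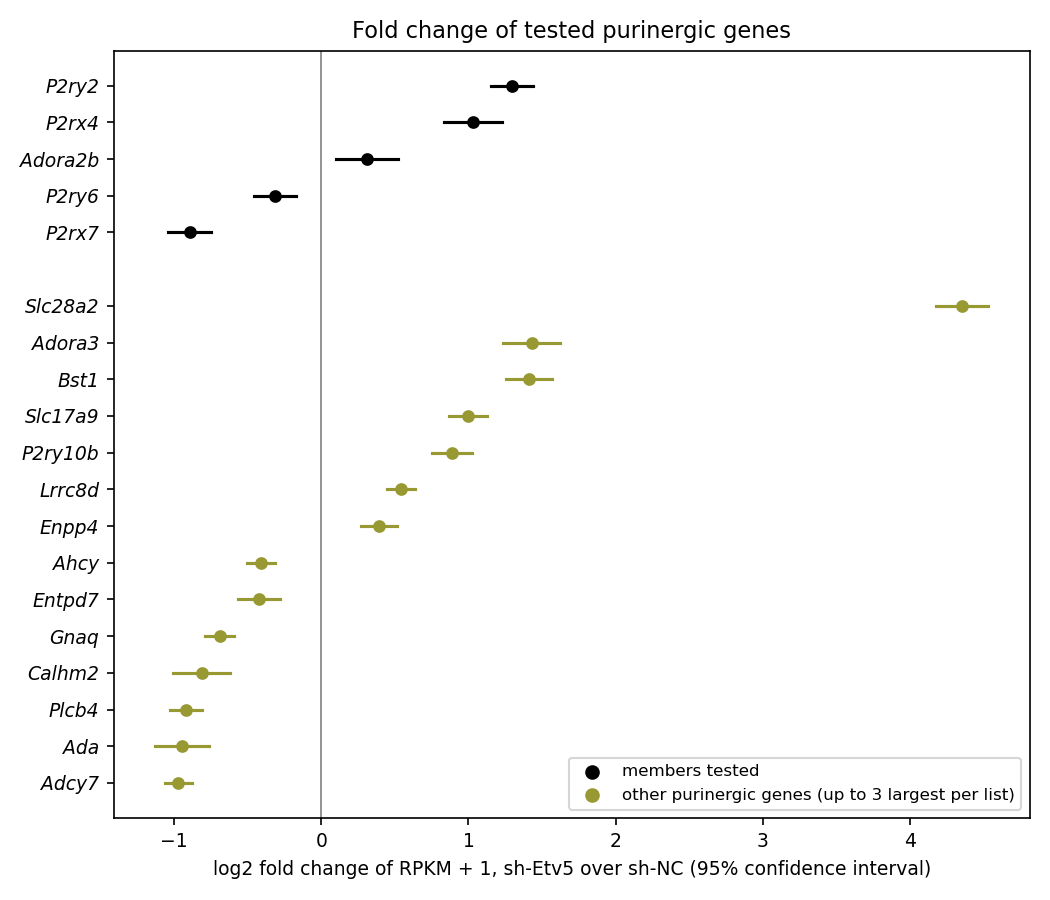
Log2 fold change of RPKM + 1 in sh-Etv5 over sh-NC libraries (horizontal axis) with 95% confidence intervals from limma, for the 5 tested members (black) and up to 3 genes with the largest change in each of 5 other purinergic lists (olive). P2ry2 (1.30) and P2rx4 (1.03) lie at the right of the members and P2rx7 (-0.90) at the left; Slc28a2 at 4.35 is far from the rest.

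Among 12 other receptor genes listed with the nucleotide and adenosine receptors, 2 were tested and both rose, as did 33.3% of all tested genes. *Adora3*, which encodes an adenosine receptor that lowers cAMP, was at 0.370, 0.224 and 0.184 RPKM in sh-NC and 2.41, 2.26 and 2.49 RPKM in sh-*Etv5* libraries (log2 difference 1.43, limma adjusted p = 6.52e-08). It passed the filter through the sh-*Etv5* libraries alone. *P2ry10b*, which despite its symbol belongs to a family known to respond to lysophosphatidylserine rather than to nucleotides, rose from 3.73 ± 0.102 to 7.76 ± 0.451 RPKM (SD, n = 3; log2 difference 0.89, limma adjusted p = 1.9e-07). The 10 receptors below the filter reached at most 0.364 RPKM, in *P2rx5*.

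Adenosine handling held the largest change of the set. *Slc28a2*, a sodium-coupled transporter that takes up purine nucleosides, was at 0.414, 0.451 and 0.181 RPKM in sh-NC and at 25.9, 26.7 and 26.9 RPKM in sh-*Etv5* libraries, which made a log2 difference of 4.35 (limma adjusted p = 4.4e-12), and it too passed the filter through one group. Of the 8 tested genes of this list it was the 1 that rose, while 4 fell and 3 were not called. Among all tested genes, 33.3% were higher and 41.0% lower. *Ada*, which deaminates adenosine, fell from 5.54 ± 0.243 to 2.41 ± 0.363 RPKM (SD, n = 3; log2 difference -0.95, limma adjusted p = 1.24e-06). *Ahcy*, which releases adenosine from S-adenosylhomocysteine, fell from 27.2 ± 1.20 to 20.2 ± 0.154 RPKM (SD, n = 3). *Slc29a1* and *Slc29a2*, equilibrative nucleoside transporters, were also lower, with log2 differences of -0.40 and -0.36.

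Of the other nucleotide hydrolases, 6 of 14 were tested, and 2 were higher and 2 lower (33.3% and 41.0% of all tested genes). *Bst1*, a relative of CD38 that acts on NAD outside the cell, rose from 3.45 ± 0.299 to 10.8 ± 0.744 RPKM (SD, n = 3; log2 difference 1.41, limma adjusted p = 1.32e-08). *Enpp4* rose (log2 difference 0.39) and *Entpd7*, an intracellular relative of *Entpd1*, fell (-0.42). The 8 genes of this list below the filter, *Cd38* among them, reached at most 0.0450 RPKM, in *Acpp*.

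Among 10 genes of nucleotide release, 7 were tested, of which 4 rose and 1 fell (33.3% and 41.0% of all tested genes). *Slc17a9*, the vesicular nucleotide transporter that loads ATP into secretory vesicles, rose from 4.03 ± 0.209 to 9.04 ± 0.209 RPKM (SD, n = 3; log2 difference 1.00, limma adjusted p = 4.18e-08). *Lrrc8d*, a subunit of volume-regulated anion channels, rose (0.54) and *Calhm2* fell (-0.81). *Panx1*, the pannexin channel through which macrophages release ATP, was at 6.31 ± 0.426 RPKM in sh-NC and 5.86 ± 0.339 RPKM in sh-*Etv5* (SD, n = 3), which did not pass the test (log2 difference -0.09, 95% interval -0.24 to 0.05; limma adjusted p = 0.226). It was named after its values were seen. *Gja1*, which encodes connexin 43, was below the filter at no more than 0.0467 RPKM in sh-NC and at 0.700 to 0.813 RPKM in sh-*Etv5* libraries.

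Of 21 G proteins and effectors through which these receptors act, 14 were tested, and 3 were higher, 8 lower and 3 not called, beside 33.3% higher and 41.0% lower among all tested genes. The genes with the largest difference of log2(RPKM + 1) were lower. *Adcy7*, an adenylyl cyclase, went from 49.9 ± 0.886 to 25.0 ± 1.06 RPKM (SD, n = 3; log2 difference -0.97, limma adjusted p = 3.49e-09). *Plcb4*, a phospholipase C below Gq-coupled receptors, went from 14.9 ± 0.159 to 7.41 ± 0.269 RPKM (SD, n = 3; -0.92), and *Gnaq* itself from 19.8 ± 0.522 to 11.9 ± 0.215 RPKM (SD, n = 3; -0.69). By the ratio of means this order does not hold, since *Pde4b*, a cAMP phosphodiesterase, went from 0.960 ± 0.0720 to 1.98 ± 0.0325 RPKM (SD, n = 3), which is 2.06-fold (log2 difference 0.60 at a pseudocount of 1 and 1.04 at 0.01).

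**Figure D4:**
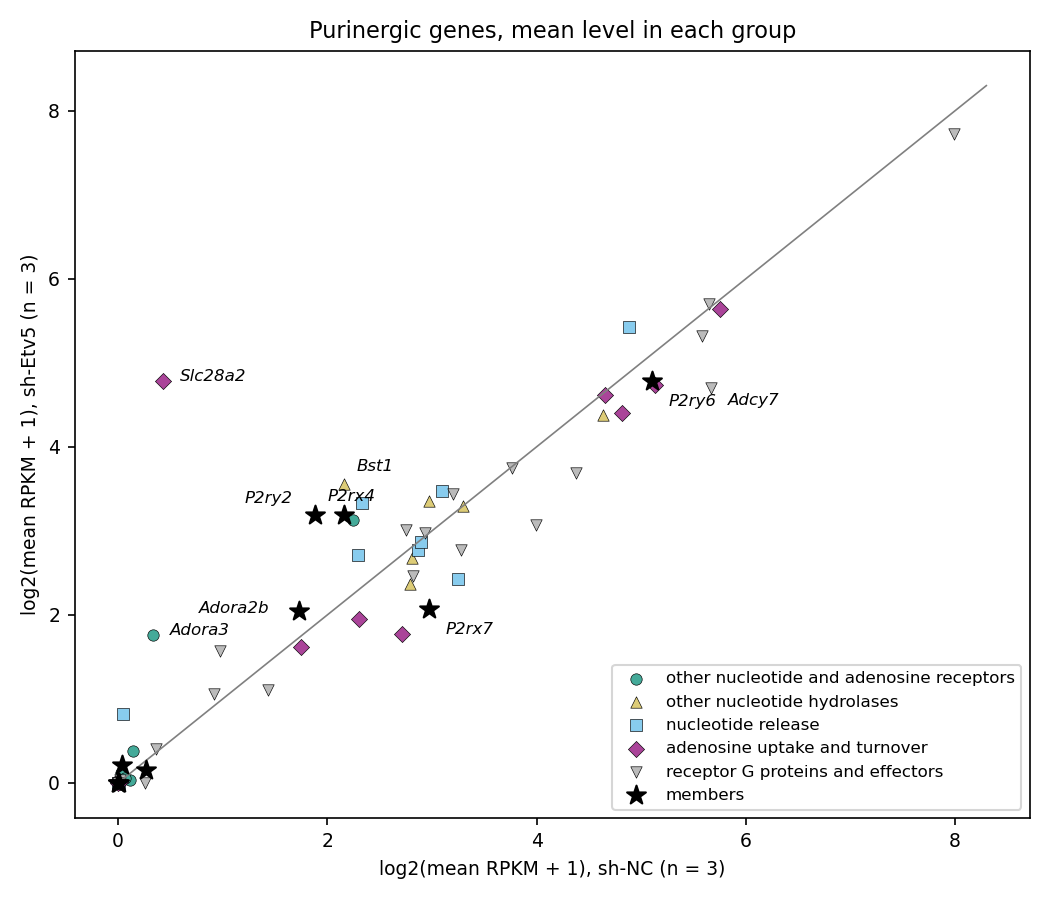
Mean level of the 10 members (stars) and of 69 other purinergic genes (symbols by list) as log2(mean RPKM + 1) in sh-NC (horizontal axis) and sh-Etv5 (vertical axis), n = 3 libraries each; the line marks equal levels. P2ry2 and P2rx4 lie above the line and P2rx7 below it, P2ry6 is the highest member in both groups, and Slc28a2 is the gene farthest above the line.

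The genes next to the members moved in either direction. *Camkk2*, which lies 1.43 kb from *P2rx4* on the opposite strand, fell from 13.7 ± 0.370 to 10.6 ± 0.0865 RPKM (SD, n = 3; log2 difference -0.34, limma adjusted p = 4.33e-05), whereas *P2rx4* rose. *Fchsd2*, 80.0 kb from *P2ry2*, was at 4.01 ± 0.205 and 3.54 ± 0.267 RPKM (SD, n = 3) and did not pass the test (log2 difference -0.14, limma adjusted p = 0.0873). *Zswim7*, 0.77 kb from *Adora2b* and on the opposite strand, rose (0.43, limma adjusted p = 0.00213), as did *Gucd1* (0.27) next to *Adora2a* and *Snx14* (0.19) next to *Nt5e*. *Specc1l* (-0.37) next to *Adora2a* and *Tctn3* (-0.27) next to *Entpd1* fell. Of the 10 neighbours listed, 7 were tested, and 3 rose and 3 fell. Among all tested genes, 33.3% were higher and 41.0% lower, so these counts do not set the neighbours apart.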

How the data were processed

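RNA-sequencing of 3 sh-NC and 3 sh-*Etv5* libraries of Raw264.7 cells was analysed. The library kit was Illumina TruSeq. The authors deposited 1 RPKM value per gene symbol and library, taken from coverage tracks on the genome build mm10; the aligner, the annotation, the gene lengths and the use of strand are not given in the sources used here. Groups and replicate numbers came from the sample titles.

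Differences were tested in R 4.3.3 with limma 3.58.1 on log2(RPKM + 1), with eBayes and an intensity trend, two-sided and without covariates, after a filter of 1 RPKM in at least 3 of the 6 libraries. Benjamini-Hochberg adjusted p-values cover all genes tested. This fold change understates changes of low genes. The fit was tested on simulated data. Members below the filter were read from a fit of all genes with a value above 0.

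To estimate depth, RPKM was multiplied by the exonic bases in GENCODE release M21, and the commonest product among genes below 0.1 RPKM was taken as 1 read. Only 20.2% to 21.9% of low genes then lay within 0.05 reads of a whole number, so read numbers are approximate and no count test was run. Coordinates are GRCm38, the same build as mm10. Other steps used Python 3.11.15, pandas 2.3.3, NumPy 2.4.6 and SciPy 1.17.1.

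The members and the gene lists were chosen with earlier results of these data known. Named were the 10 members, *Etv5*, up to 3 tested genes with the largest change of each other list, the 3 profiles nearest to the member that rose most and to the one that fell most, listed neighbours and cell type markers. *Slc29a1*, *Slc29a2*, *Panx1*, *Pde4b* and *Cd38* were named after their values were seen, and the core GGAA was added after the promoters were seen. Alternatives were other pseudocounts, filters and scalings, no trend, a replicate block, leaving out each library and a threshold on the fold change. Settings combined with no filter for *Adora2a* and *Entpd1* were chosen after seeing the data. The ratios of neighbouring receptor genes were not planned.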

Additional observations from a re-analysis of the deposited data

How the results depend on the processing

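*P2rx4*, *P2rx7*, *P2ry2* and *P2ry6* kept their direction and their call under each of the 14 alternatives run for them, with log2 fold changes of 0.96 to 1.23, -1.09 to -0.86, 1.25 to 1.58 and -0.37 to -0.26. *Adora2b* kept its direction but lost its call without a filter (0.31, limma adjusted p = 0.0658), after quantile normalization (0.22, limma adjusted p = 0.0732) and without sh-*Etv5* replicate 1 (0.22, limma adjusted p = 0.0607), and ranged from 0.22 to 0.41 over the fits that leave out 1 library. It has no value at a mean RPKM of at least 5. In fits with no filter, *Adora2a* was at 0.12 after quantile normalization (limma adjusted p = 0.0628) and between 0.14 and 0.22 with each library left out, and *Entpd1* passed the threshold after quantile normalization (-0.19, limma adjusted p = 0.0223) but in none of its other alternatives. The causes were not tested.

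Requiring an absolute log2 fold change above 1 in addition left 2 members higher and 0 lower, since the larger fall was *P2rx7* at -0.90. Of the other purinergic genes, 3 stayed higher and 0 lower, since the largest fall was that of *Adcy7* at -0.97. The higher ones included *Slc28a2* and *Adora3*, which met the filter through the sh-*Etv5* libraries alone and so could only be called higher. Among all genes, 669 were left higher and 322 lower (limma). Under that rule 9.23% of tested genes are called. With each library left out, 2 to 3 members were higher and 2 lower. Rescaling libraries to the same sum moved the median log2 fold change of all genes from -0.05 to -0.10.

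Groups share replicate numbers, but deviations of same-numbered libraries correlated at 0.0739, -0.0710 and -0.0352, so the numbers were not taken to pair the libraries. With the replicate block, 3539 genes were higher and 4361 lower, 3 members were higher and 2 lower, and no call of a member changed; the block left *P2ry6* at a limma adjusted p of 0.00346 and *Adora2b* at 0.0172. At the depth of these libraries, *P2ry13*, *P2ry14* and *Nt5e* are too low for any difference to be seen.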
